A study of Mus musculus with 11 samples.

Results

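A set of 8 genes of the membrane-spanning 4A (Ms4a) family is described here, chosen by name from the 27998 genes of the count tables: Ms4a1, Ms4a4a, Ms4a4c, Ms4a6b, Ms4a6c, Ms4a6d, Ms4a7 and Ms4a8a. They were followed in 11 libraries of macrophages (macs) from mice with and without a Cre that deletes floxed Zeb2, the gene of a zinc-finger transcription factor expressed throughout the mac lineage. Ms4a1, which encodes the B cell surface protein CD20, was higher in Zeb2KO than in WT macs in all 5 tissues, at 101 against 0.659 CPM (UMI counts scaled to equal library totals of 1000000) in Kupffer cells (KCs). Ms4a6c was lower in Zeb2KO macs in all 5 tissues, by between 1.15-fold and 14.4-fold. The smallest difference was in CMs, where clusters holding both genotypes ran from lower to higher in Zeb2KO (log2 −0.97 to 0.20). Ms4a4c was also higher and Ms4a8a also lower in all 5, but with few UMIs or overlapping counting intervals in some tissues. Ms4a6b, Ms4a6d and Ms4a7 changed direction by tissue, and Ms4a6b was 6.24-fold lower in Zeb2KO microglia and 3.03-fold higher in Zeb2KO spleen macs (SMs).

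MS4A proteins are small proteins that cross the cell membrane several times and sit in complexes with receptors and channels. CD20 is found on B cells from the precursor stage until they become plasma cells, is involved in calcium entry after B cell receptor signalling, and is the target of antibodies that deplete B cells. Ms4a2, a relative, encodes the β chain of the IgE receptor of mast cells, whereas many of the clustered Ms4a4, Ms4a6 and Ms4a7 genes are known as transcripts of monocytes, macs and T cells.

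The libraries came from 10x Genomics 3′ single-cell RNA-seq, with 1 WT and 1 Zeb2KO library for each of microglia (brain), colon macs (CMs), KCs (liver), alveolar macs (AMs, lung) and SMs (spleen), and 1 further WT library of KCs. WT libraries were from Zeb2 fl/fl littermates without a Cre, and the further WT library of KCs was from Nr1h3 fl/fl mice. Zeb2KO mice carried the same floxed alleles with a Cre driven by a mac promoter: Fcgr1-cre by the labels of all 5 libraries, but by the study's methods Clec4f-cre in the liver and Itgax-cre in the lung, a difference that could not be settled here. The study used young adult mice of mixed sex on a C57Bl/6 background, and how many animals went into a library was not given in the sources used here. KCs were sorted as Clec4F+CD64+F4/80+ cells, AMs as CD11c+SiglecF+CD64+F4/80+ cells, microglia as CD45int CD64+F4/80+ cells, and CMs and SMs as CD64+F4/80+ cells lacking Ly6C, Ly6G and SiglecF. By the study's own description Fcgr1-cre and Clec4f-cre also recombine in some other immune cells, B cells among them, and outside the brain some macs of the Cre-bearing mice kept a Zeb2 allele, which neither the labels nor the counts of Zeb2 separate.

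A library held 3097 to 7703 cells and between 11133411 (WT SMs) and 47400786 (WT CMs) UMIs, which count unique molecules. Cells of outlying quality and clusters of another cell type were left out, which took away 18.6% to 27.1% of the remaining cells in spleen, 6.75% to 11.3% in the Zeb2 fl/fl liver pair and 0% to 5.02% in the other tissue pairs. This left 2830 to 6974 macs a library, with a median of 2176 (WT SMs) to 9208 (WT CMs) UMIs a cell. In microglia, KCs, AMs and SMs the summed level of that tissue's own mac markers was lower in the Zeb2KO library, at 15133 against 6845 CPM in KCs and 3308 against 2329 CPM in AMs. CMs had no defining marker here, and the genes described for them (Cx3cr1, H2-Aa, Itgax and Ccr2) summed to 9045.5 CPM in WT and 6069 CPM in Zeb2KO. Listed neutrophil genes summed to 59.4 CPM in WT and 23888 CPM in Zeb2KO AMs. Zeb2 itself was counted at 312 to 746 CPM in WT and 478 to 1747 CPM in Zeb2KO macs; 3′ counts read the part of the transcript that remains after recombination, so they did not check the deletion. Levels are CPM of UMIs summed over the macs of a library and shares are the percentage of macs with at least 1 UMI; the 95% intervals given (exact Poisson for CPM and ratios of CPM, exact binomial for shares) cover counting error only. With 1 library for each tissue and genotype, no test was possible within a tissue, and genotype, mouse, sort and library cannot be told apart there. Because levels are totals over a library, fewer cells carrying a transcript and less transcript per cell were not separated by CPM alone. A member was called different in a tissue when the ratio of its CPM, with 1 CPM added to each, was at least 2-fold and the higher library held at least 20 CPM.

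All 8 members lie on chromosome 19 (mm10), between 11067471 and 11604849, a stretch of 537379 bases that holds 14 of the 19 Ms4a genes of that chromosome. In order along it are Ms4a8a (chr19:11067471-11081102, minus strand), Ms4a1 (chr19:11249675-11266241, minus), Ms4a7 (chr19:11321039-11336146, minus), Ms4a4a (chr19:11375523-11392790, plus), Ms4a4c (chr19:11404770-11427246, plus), Ms4a6c (chr19:11469366-11482192, plus), Ms4a6b (chr19:11516512-11531256, plus) and Ms4a6d (chr19:11586604-11604849, minus). Ms4a6c and Ms4a6b are neighbours on the same strand, were both lower in Zeb2KO microglia, and differed in opposite directions in SMs, so the 300 bases around the RefSeq start of each (RefSeq, GRCm38.p6, plus strand, 250 bases before to 50 after) are shown. For Ms4a6b this start lies inside the longer GENCODE gene given above. Ms4a6b is at chr19:11518309-11518608 and Ms4a6c at chr19:11469118-11469417, and capitals mark the longest run of bases found in both:
Ms4a6b: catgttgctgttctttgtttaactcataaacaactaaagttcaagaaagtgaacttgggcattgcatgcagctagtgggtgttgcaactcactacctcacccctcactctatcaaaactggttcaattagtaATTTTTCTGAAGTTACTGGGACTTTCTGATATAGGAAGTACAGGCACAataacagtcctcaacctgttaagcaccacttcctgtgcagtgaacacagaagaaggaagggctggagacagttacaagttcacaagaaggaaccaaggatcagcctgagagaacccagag
Ms4a6c: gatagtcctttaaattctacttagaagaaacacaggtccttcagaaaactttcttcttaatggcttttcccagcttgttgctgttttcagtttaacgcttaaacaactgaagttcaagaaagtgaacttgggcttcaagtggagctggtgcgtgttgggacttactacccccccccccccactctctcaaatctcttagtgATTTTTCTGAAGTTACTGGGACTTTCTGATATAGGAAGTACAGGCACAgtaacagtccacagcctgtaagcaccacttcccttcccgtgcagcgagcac

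The shared run was 48 bases long, began 118 bases before the annotated start of Ms4a6b and 49 bases before that of Ms4a6c, and an alignment of both windows held 178 identical bases in 332 columns (53.6%). ZEB proteins are known to bind the letters CACCT and, more strictly, CACCTG. Searched on both strands (so as AGGTG and CAGGTG too, each 6-letter match also being a 5-letter match), CACCTG was in 0 of the 7 start windows listed for 6 members (none was listed for Ms4a1 and Ms4a6d, which were not searched) and in 20.2% of all 32851 windows of that length. CACCT was in 1 of the 7, that of Ms4a8a at 138 bases before the start, and in 51.9% of all windows. These matches say only which letters lie in the windows. Near the 3′ ends, where the reads fall, no member had another gene at 95% identity or more over 50 bases, but Ms4a4c was 92.0% identical to Ms4a4b over 402 aligned columns and Ms4a6c 85.1% identical to Ms4a6b over 375, so the counts within these pairs are less certain.

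**Figure D1:**
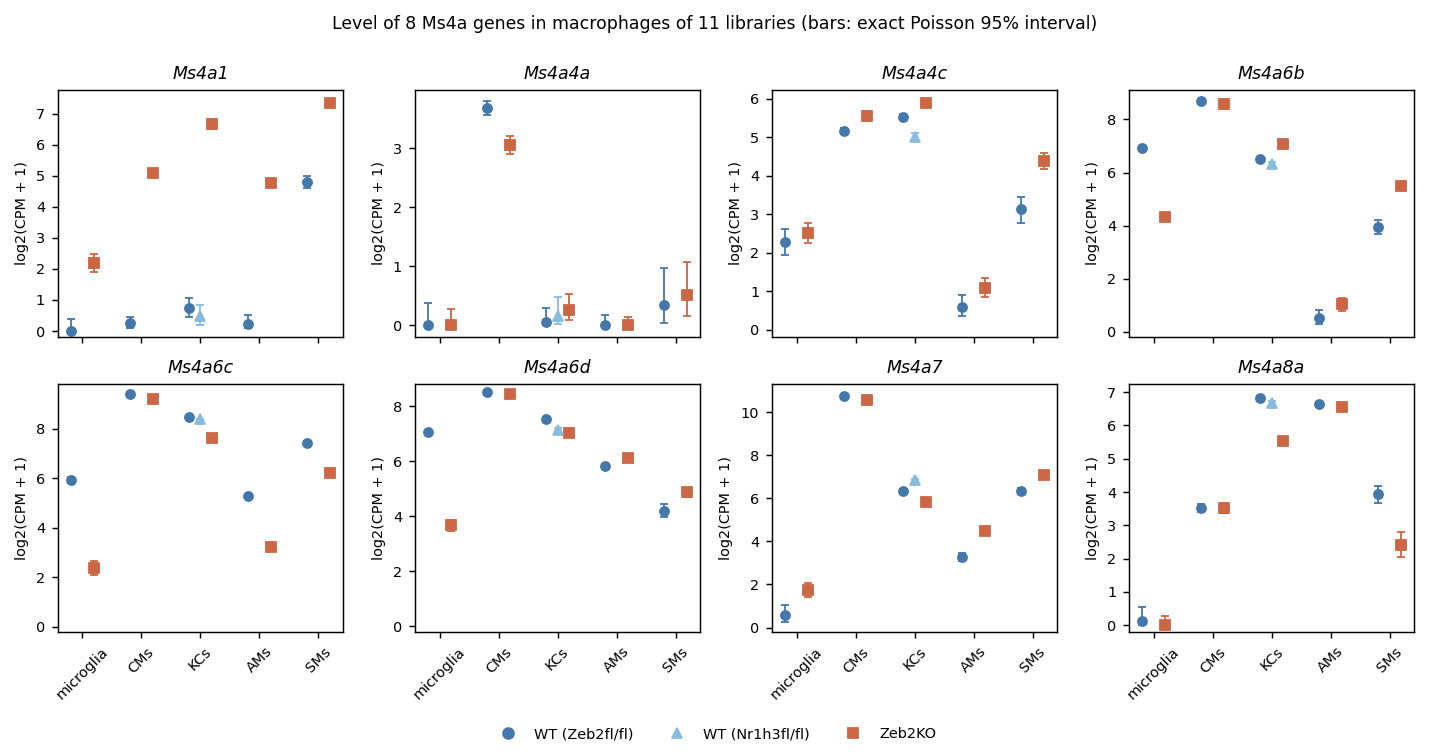
Level of each Ms4a gene (panels) as log2(CPM + 1) in the macs of each tissue, with WT as blue circles, the Nr1h3 fl/fl WT library of KCs as a light-blue triangle and Zeb2KO as orange squares, 1 library each, and bars for the exact Poisson 95% interval. Ms4a1 was above WT in every Zeb2KO library and Ms4a6c below it, and Ms4a4a held more than 5 UMIs in CMs only.

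Ms4a1 was close to absent from WT macs outside the spleen. It had 0 UMIs in WT microglia (3 UMIs would be 0.243 CPM), 8 UMIs (0.185 CPM) in WT CMs, 16 UMIs (0.659 CPM) in WT KCs, 7 UMIs (0.385 CPM) in the Nr1h3 fl/fl WT KCs and 5 UMIs (0.182 CPM) in WT AMs. WT SMs stood apart with 203 UMIs, or 27.1 CPM (23.5 to 31.1). The Zeb2KO libraries held 60 UMIs in microglia (3.54 CPM, 2.71 to 4.56), 1206 in CMs (33.0 CPM, 31.2 to 34.9), 2618 in KCs (101 CPM, 97.1 to 105), 977 in AMs (26.2 CPM, 24.6 to 27.9) and 1476 in SMs (160.3 CPM, 152 to 169). Within each tissue the intervals of the pair did not overlap, while across tissues the WT SMs lay among the Zeb2KO libraries. In order of level came Zeb2KO SMs, KCs and CMs, then WT SMs and Zeb2KO AMs, which overlapped, then Zeb2KO microglia, and last the WT libraries outside the spleen, each of which overlapped its neighbour. The sorts differed, as CMs and SMs had to lack SiglecF and AMs to carry it. Siglecf was higher in Zeb2KO cells with an Ms4a1 UMI than without in SMs (41.7 and 5.29 CPM), CMs (14.4 and 2.03 CPM) and KCs, but not in AMs or microglia. The part of these sorts in the order was not tested.

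The ratio of Zeb2KO to WT was 153-fold in KCs (94.1 to 268) against the Zeb2 fl/fl WT library and 262-fold (127 to 652) against the Nr1h3 fl/fl WT library. It was 179-fold (90.3 to 415) in CMs, 144-fold (61.4 to 444) in AMs and 5.92-fold (5.11 to 6.89) in SMs. In microglia, with no UMI in WT, Ms4a1 was at least 14.6-fold higher in Zeb2KO, measured against 3 UMIs in the WT library. The ratio was thus lowest in the spleen, where the WT library held the most Ms4a1 UMIs, and the microglia did not reach 20 CPM in either library.

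The share of macs with an Ms4a1 UMI went from 0% to 1.17% in microglia, 0.183% to 11.5% in CMs, 0.372% to 30.4% in KCs (0.202% in the Nr1h3 fl/fl WT), 0.0717% to 9.17% in AMs and 4.64% to 23.3% in SMs. More than a single UMI per cell was found in 16.1% of Zeb2KO KCs, 12.2% of SMs, 5.74% of CMs, 2.90% of AMs and 0.308% of microglia. Every cell was also thinned to 1500 UMIs, so that depth was equal. The shares with at least 1 Ms4a1 UMI were then 12.5% in Zeb2KO KCs, 16.1% in SMs, 3.58% in CMs, 2.99% in AMs and 0.401% in microglia. In WT they were 0.149% in KCs, 0% in CMs and 3.07% in SMs. Thinning left out 807 WT and 527 Zeb2KO SMs with fewer UMIs, and it put SMs ahead of KCs, the reverse of the order before thinning.

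Ms4a1 being a B cell gene, its UMIs were set against those of Cd79a, which encodes a chain of the B cell receptor. B cell-like cells of the liver libraries held 0.355 to 0.398 Ms4a1 UMIs per Cd79a UMI and those of the spleen 0.721 to 0.749. WT macs were near these ratios in KCs (0.364, 0.192 to 0.657), Nr1h3 fl/fl KCs (0.280, 0.102 to 0.666) and SMs (0.619, 0.517 to 0.740). They held 0.205 in CMs (0.0828 to 0.445) and 0.833 in AMs (0.201 to 3.28). The AM ratio rests on 5 and 6 UMIs, that of CMs on 8 and 39. WT microglia held 0 Ms4a1 and 4 Cd79a UMIs. Zeb2KO macs held 30.4 Ms4a1 UMIs per Cd79a UMI in KCs (24.6 to 38.2), 23.6 in CMs, 244 in AMs, 60 in microglia (60 UMIs against 1) and 4.72 in SMs (4.17 to 5.34). The gap to the B cell-like ratios was thus many-fold in every Zeb2KO library and smallest in SMs. For CMs, AMs and microglia these ratios came from other tissues.

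Outside the spleen 0.0308% to 1.22% of the macs of a library held a Cd79a UMI, and in the spleen 8.84% of WT and 8.30% of Zeb2KO SMs. Leaving out so few cells could hardly move the shares outside the spleen. Macs with no Cd79a UMI thus gave nearly the same shares as all macs. Among them an Ms4a1 UMI was found in 1.17% of Zeb2KO microglia, 11.4% of CMs, 30.4% of KCs, 9.17% of AMs and 22.6% of SMs, and in 0%, 0.184%, 0.325% (0.174% in the Nr1h3 fl/fl library), 0.0718% and 3.96% of the WT macs in the same order. In SMs the level in these cells was 17.6 CPM in WT and 153 CPM in Zeb2KO. In macs without a UMI of these or any other of the B cell genes listed, which leaves fewer and shallower cells, the share was 19.95% in Zeb2KO KCs, 16.0% in CMs, 7.63% in AMs and 15.3% in SMs, against 3.17% in WT SMs. The 10 B cell markers used to find B cell-like clusters, without Ms4a1, summed to 28.9 to 472 CPM in WT and 11.2 to 389 CPM in Zeb2KO macs, lower in Zeb2KO in each tissue except KCs (216 and 245 CPM, with 284 CPM in the Nr1h3 fl/fl library). Few genes carried this sum, so it does not give the B cell content. Bank1 was at 310 CPM in WT SMs and 278 CPM in Zeb2KO SMs, and Cd22 at 28.3 CPM in WT AMs. In CMs Cd79b went from 1760 UMIs in WT to 156 in Zeb2KO, while Cd79a had 39 and 51 UMIs. Among the 10 markers, those at 0 included Pax5 in both microglia libraries, WT CMs and WT AMs, Blk in both microglia libraries and WT AMs, Cr2 in both AM libraries, Fcer2a in WT microglia and Ebf1 in Zeb2KO microglia. Fcrla and Cd37, also known from B cells, were not in that sum and went the other way: Cd37 was at 495 and 912 CPM in WT and Zeb2KO microglia and 14.0 and 84.8 CPM in AMs, and Fcrla at 0.243 and 245 CPM in microglia. Spib and Pou2af1, the remaining B cell genes listed, were highest in SMs and lower there in Zeb2KO. Spib was at 13.3 CPM in WT and 5.97 CPM in Zeb2KO SMs, and Pou2af1 at 9.34 and 6.19 CPM. With these further genes counted, the B cell genes listed were higher in Zeb2KO microglia and AMs, and their part in the Ms4a1 level was not tested.

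**Figure D2:**
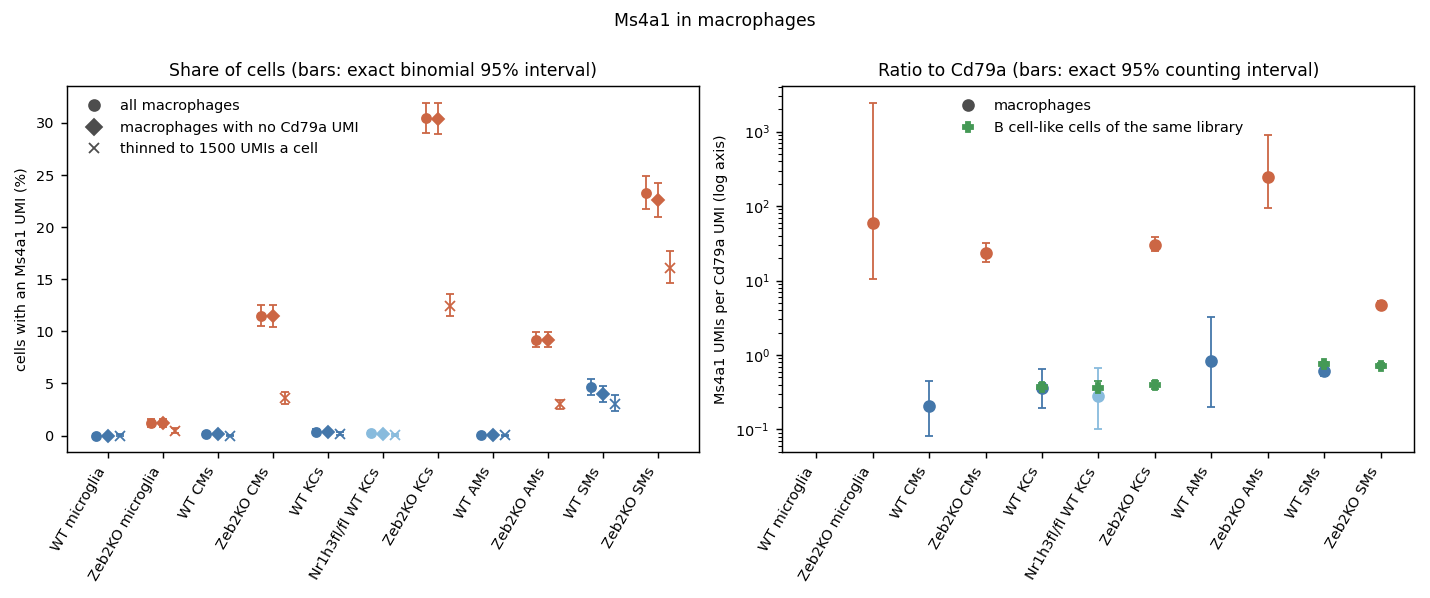
Left, share of macs (%) with an Ms4a1 UMI in each library, over all macs (circles), over macs with no Cd79a UMI (diamonds) and after thinning each cell to 1500 UMIs (crosses). Right, Ms4a1 UMIs per Cd79a UMI on a log axis in macs (circles) and in the B cell-like cells of the same library (green plus signs): Zeb2KO KCs stood at 30.4 and their B cell-like cells at 0.398. WT microglia held 0 Ms4a1 UMIs and are not drawn on the right.

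Cells that should lack Ms4a1 were taken as a rough reference for free RNA, not as a measure of it. In the spleen, erythroid-like cells carried an Ms4a1 UMI in 8.54% of WT cells (median 2605 UMIs) and 15.4% of Zeb2KO cells (median 4762 UMIs), and after thinning in 7.35% and 9.33%. The 4.64% of WT SMs (median 2176 UMIs) was not above this. WT SMs with an Ms4a1 UMI held Cd79a at 198 CPM and those without at 34.4 CPM, and 13 of them held 3 or more Ms4a1 UMIs. The 23.3% of Zeb2KO SMs (median 2702 UMIs) was higher, as it was after thinning (16.1%), but the erythroid-like value rests on 12 of 78 cells and its interval (8.21% to 25.3%) holds the SM share. In the colon, fibroblast-like cells carried it in 0 of 132 WT cells (upper 95% bound 2.76%) and in 2.36% of Zeb2KO cells, or 0.787% after thinning against 3.58% of the CMs. In the liver, endothelial-like cells of the Zeb2KO library carried it in 25.6% (median 6876 UMIs), or 7.35% after thinning against 12.5% of KCs. C1qa, a mac transcript, had a UMI in 88.5% to 100% of the erythroid-like, fibroblast-like and endothelial-like cells of these libraries, so none of them was a clean background. No such cell type of 50 cells or more was found in the brain and lung libraries, where the WT shares were 0% and 0.0717%.

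The SM values depended on how B cells were removed. With all deposited barcodes counted the log2 ratio of Ms4a1 in SMs was 0.30 in place of 2.52, and with a small cluster of mixed B cell and mac genes (205 WT and 134 Zeb2KO cells) kept it was 1.41, with shares of 8.78% and 25.4%. In the other tissues 0 to 143 cells of a library were B cell-like.

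Ms4a1 was unevenly spread within each Zeb2KO library. In KCs, 1 cluster of 1931 cells (49.0% of the KCs) held 90.0% of the Ms4a1 UMIs, at 193 CPM and with a UMI in 54.0% of its cells, against 6.32 to 154 CPM in the other clusters. Genes that led this cluster included Siglecf, Ddit4, Il1r2, Cd34 and Pglyrp1. In CMs, 783 cells (20.2%) led by Hp, Mmp8, Ltb and Ly6i held 87.3% of the UMIs at 143 CPM, against 1.83 to 18.4 CPM elsewhere. In SMs, 693 cells (24.1%) held 84.2% at 516 CPM, against 21.7 to 104 CPM. The genes that led this cluster of SMs were the neutrophil-type genes S100a8, S100a9, Camp and Ngp, but S100a8 had a UMI in 4.33% of its cells and Ms4a1 in 74.0%, and over all Zeb2KO SMs S100a8 was at 8.88 CPM in cells with an Ms4a1 UMI and 179 CPM in those without. The AMs were less divided, with 78.3% of UMIs in a cluster of 3696 cells (59.1%) at 30.5 CPM, and in microglia the cluster with the most UMIs (906 cells) held 43.3%. These were not the clusters of highest level, since other clusters reached 63.6 CPM in AMs and 21.9 CPM, against 4.80 CPM, in microglia. In Zeb2KO AMs S100a8 had a UMI in 99.3% of the cells with Ms4a1 and 94.4% of those without, and the part of the neutrophil genes in the Ms4a1 level was not tested. No Ms4a gene was used to build these clusters, and the clusters are a description of the cells, not a test.

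Clusters that held at least 50 cells of both genotypes allow a comparison within a cluster, with free RNA not removed. Cells in them from Cre-bearing mice may mostly have kept a Zeb2 allele. The paper places such cells with or near WT cells in lung, spleen and colon, their genotype being presumed in spleen and colon. It also finds them in the liver. The Ms4a1-rich cluster of CMs, described above, is also shared (55 WT and 783 Zeb2KO cells) and may differ. In the colon the paper used higher Ms4a1 among its marks of cells without Zeb2. The comparison therefore does not show deletion with the cell state held fixed. Ms4a1 was at least 2-fold higher in Zeb2KO cells in 5 of 5 shared clusters of KCs, 9 of 9 of CMs, 3 of 3 of SMs and 3 of 4 of AMs, where the lowest log2 ratio was −0.36. Of those of KCs, 1 was led by Alox15, Prg4, Slpi and Saa3. It held less of the listed mac genes than the other liver clusters (mean log2 −1.07). Of those of CMs, the Ms4a1-rich one had the highest ratio (log2 7.17, 1053 Zeb2KO UMIs). Most other counts were small. The counting intervals of WT and Zeb2KO were apart in 4 of these clusters of KCs, 5 of CMs (the Ms4a1-rich one among them), 1 of SMs and 1 of AMs. The cluster of SMs was the one led by Xcr1, a gene of conventional dendritic cells, and not a mac-led one. Many of these levels were also under 20 CPM and near those of other cell types of the same library. Endothelial-like cells of the liver held 2.64 CPM in WT and 63.6 CPM in Zeb2KO, where Zeb2KO cells of the shared clusters of KCs held 6.36 to 36.2 CPM, and fibroblast-like cells of the colon held 0 and 2.98 CPM. In 1 shared cluster of KCs, for example, Ms4a1 was at 0.894 CPM in WT and 10.7 CPM in Zeb2KO cells, while Ms4a6c was at 252 and 240 CPM and Ms4a8a at 82.3 and 80.8 CPM. Microglia had no cluster with 50 cells of both genotypes.

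Among the Ms4a6 genes, expressed in monocytes, macs and, for Ms4a6b, T cells, Ms4a6c had the same direction in the library totals of all 5 tissues. It was at 60.4 CPM (56.1 to 64.9) in WT and 4.19 CPM (3.28 to 5.29) in Zeb2KO microglia, 680.3 and 589.9 CPM in CMs, 351 (331 in the Nr1h3 fl/fl library) and 195 CPM in KCs, 38.1 and 8.42 CPM in AMs, and 172 and 72.7 CPM in SMs. The intervals of each pair were apart, and no neighbours in the order of all 11 libraries overlapped. The difference was 14.4-fold (11.3 to 18.6) in microglia, 4.52-fold (3.98 to 5.15) in AMs, 2.36-fold (2.15 to 2.60) in SMs, 1.80-fold (1.74 to 1.86) in KCs and 1.15-fold in CMs. Both WT libraries of KCs, which differ in no Zeb2 deletion, were 1.06-fold apart in Ms4a6c and up to 1.45-fold apart in the other members that reached 20 CPM there. The CM difference was larger than the former and smaller than the latter. With 1 WT library of CMs, the spread between WT libraries of that tissue was not known. The Ms4a6c intervals of both WT libraries of KCs were apart too (343 to 358 and 323 to 340 CPM). Intervals that are apart thus do not by themselves mark a genotype difference. The share of cells with a Ms4a6c UMI was 21.5% and 1.91% in microglia, 76.5% and 45.9% in KCs and 30.6% and 17.8% in SMs, compared with 5.51% and 4.52% of the B cell-like cells of the spleen libraries.

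Ms4a6c was lower in those Zeb2KO KCs that carried Ms4a1. In Zeb2KO KCs with an Ms4a1 UMI Ms4a6c was at 74.3 CPM (68.5 to 80.4) and in those without at 251 CPM (244 to 259), though the former were deeper (median 6540 against 5618 UMIs). The cluster of KCs that held most Ms4a1 had 55.7 CPM of Ms4a6c but 0% of the WT KCs, so it could not be compared. In none of the 5 shared clusters of KCs did Ms4a6c differ 2-fold (log2 −0.41 to 0.79). In AMs it did in 3 of 4 shared clusters (log2 −3.07 to −0.40), and in CMs in 0 of 9 (−0.97 to 0.20). In SMs it did in 1 of 3, the cluster led by Xcr1 (−0.34 and −0.95 in the others). The lowest CM ratio was in the Ms4a1-rich cluster, whose Zeb2KO cells held 368 CPM, against 523 to 734 CPM in the other Zeb2KO clusters. Over all Zeb2KO CMs Ms4a6c was at 383 CPM in cells with an Ms4a1 UMI and 619 CPM in those without, and in SMs at 54.8 and 79.7 CPM. In AMs (10.6 and 8.16 CPM) and microglia (9.20 and 4.13 CPM) it was not lower in such cells, and the intervals overlapped. The microglia value rests on 38 cells with an Ms4a1 UMI. In AMs the cluster led by C1q genes, described below with Ms4a7, weighs on the values. Without it Ms4a6c over all Zeb2KO AMs was at 4.03 in place of 8.42 CPM, and this split was not repeated. The AM cluster with most Ms4a1 UMIs held 0.797 CPM of Ms4a6c, against 2.30 to 95.4 CPM in the others.

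Ms4a6d, whose human relative lies in a region linked to Alzheimer's disease, was at 131 CPM (125 to 138) in WT and 11.7 CPM (10.1 to 13.4) in Zeb2KO microglia, an 11.2-fold difference (9.68 to 13.1), and its share went from 41.3% to 5.09%. Elsewhere it differed less, at 367 and 347 CPM in CMs, 184 (140.3 in the Nr1h3 fl/fl library) and 129 CPM in KCs, 56.3 and 67.9 CPM in AMs, and 17.5 and 28.2 CPM in SMs. Its difference in KCs was 1.43-fold against the Zeb2 fl/fl library and was close to the 1.31-fold between both WT libraries. In the order of levels Nr1h3 fl/fl KCs, WT microglia and Zeb2KO KCs overlapped.

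Ms4a6b was at 119 CPM (113 to 125) in WT and 19.1 CPM (17.1 to 21.3) in Zeb2KO microglia, 6.24-fold lower (5.53 to 7.06), with shares of 38.0% and 9.04%. It was at 409.9 and 381 CPM in CMs, 89.2 (78.2 in the Nr1h3 fl/fl library) and 134 CPM in KCs, 0.437 and 1.05 CPM in AMs, and 14.5 and 44.1 CPM in SMs. In SMs it was therefore 3.03-fold higher in Zeb2KO (2.45 to 3.78), with a share of 3.21% in WT and 11.1% in Zeb2KO. In the WT library the share was 4.09% in B cell-like cells and 2.44% in erythroid-like cells (1.63% of SMs, 2.50% and 0.735% after thinning), so the SMs lay between these references. In the Zeb2KO library it was 5.32% and 6.41%. T cell-like cells of the WT spleen library held it at 487 CPM. It was at least 2-fold higher in 3 of 3 shared clusters of SMs, the Xcr1-led one among them, with counting intervals that overlapped in all 3, and in Zeb2KO SMs it was at 83.8 CPM in cells with an Ms4a1 UMI and 28.6 CPM in those without.

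The microglia clusters of each genotype stood on their own side for the Ms4a6 genes. Across the WT clusters of 52, 1299 and 1465 cells Ms4a6b ran from 50.1 to 144 CPM, Ms4a6c from 28.6 to 68.9 CPM and Ms4a6d from 112 to 153 CPM. Across the 4 Zeb2KO clusters of 160 to 1106 cells Ms4a6b ran from 11.3 to 35.7 CPM, Ms4a6c from 2.03 to 9.21 CPM and Ms4a6d from 8.31 to 12.5 CPM. The lower levels in Zeb2KO microglia were therefore not those of 1 cluster.

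Ms4a4c was at 3.89 and 4.73 CPM in WT and Zeb2KO microglia, 34.8 and 46.4 CPM in CMs, 45.4 (31.2 in the Nr1h3 fl/fl library) and 58.3 CPM in KCs, 0.510 and 1.13 CPM in AMs, and 7.74 and 19.99 CPM in SMs. It was higher in Zeb2KO in all 5 tissues, but the intervals overlapped in microglia and AMs. In CMs the direction rests on the Ms4a1-rich cluster, outside which Ms4a4c was lower in Zeb2KO (33.6 CPM in WT and 19.8 CPM in Zeb2KO). In AMs it rests on the cluster led by C1q genes described with Ms4a7, without which each library held 1 UMI (0.0365 CPM in WT and 0.0282 CPM in Zeb2KO). In KCs the 1.28-fold difference was smaller than the 1.45-fold between both WT libraries. In SMs the difference was 2.58-fold (1.91 to 3.53), with the higher library just under 20 CPM, so it was not called. Ms4a4c was also found in 42.2% and 44.4% of the B cell-like cells of the WT and Zeb2KO spleen libraries. In Zeb2KO macs of 4 tissues it was higher in cells with Ms4a1, at 120 CPM in CMs with an Ms4a1 UMI and 36.2 CPM in those without, 48.7 and 8.77 CPM in SMs, 75.4 and 50.3 CPM in KCs, and 23.0 and 4.49 CPM in microglia (38 cells with an Ms4a1 UMI). WT SMs had the same pattern (32.5 and 6.23 CPM), and Zeb2KO AMs, with 1 and 41 UMIs, did not (0.246 and 1.23 CPM). In the Ms4a1-rich cluster of CMs it was at 152 CPM, against 4.57 to 30.01 CPM in the other Zeb2KO clusters, and the 55 WT cells of that cluster held 138 CPM of it and no Ms4a1 UMI.

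Ms4a4a, whose protein is known from macs and their response to fungal sugars through Dectin-1, was a CM gene in these libraries. It was at 11.9 CPM (513 UMIs) in WT and 7.31 CPM (267 UMIs) in Zeb2KO CMs, 1.62-fold lower (1.40 to 1.89), with shares of 10.7% and 6.41%. In the other 9 libraries it had 0 to 5 UMIs and no ratio is given, and it did not reach 20 CPM anywhere.

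**Figure D3:**
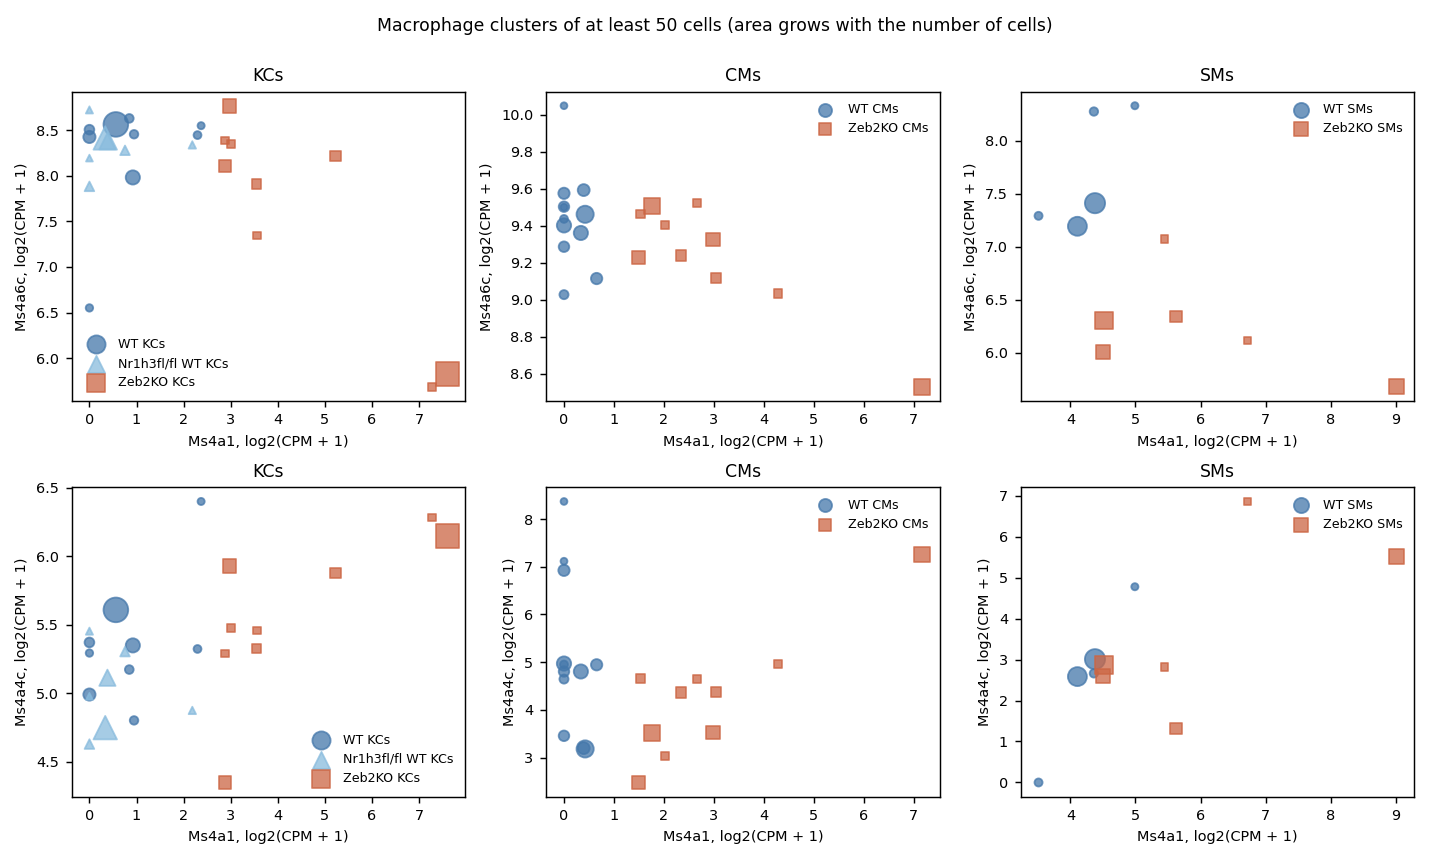
Levels of Ms4a6c (top row) and Ms4a4c (bottom row) against Ms4a1 in clusters of KCs, CMs and SMs, all as log2(CPM + 1), with a point for each cluster of at least 50 cells and an area that grows with its cells. Among Zeb2KO KCs the cluster with most Ms4a1 (193 CPM) had 55.7 CPM of Ms4a6c, and among Zeb2KO CMs that with most Ms4a1 (143 CPM) had 152 CPM of Ms4a4c.

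Ms4a7, which in the brain is known for marking border macs and cells from the bone marrow rather than microglia, was foremost a CM transcript. It was at 1722 and 1528 CPM in WT and Zeb2KO CMs, with a UMI in 98.5% and 95.6% of cells, and at 80.6 (113 in the Nr1h3 fl/fl library) and 56.4 CPM in KCs, 80.8 and 136 CPM in SMs, 8.71 and 21.1 CPM in AMs, and 0.486 and 2.36 CPM in microglia. The microglia values rest on 6 and 40 UMIs. In KCs the Zeb2KO level was 1.43-fold below the Zeb2 fl/fl WT (log2 −0.51) and further below the Nr1h3 fl/fl WT (log2 −0.99), and both WT libraries differed 1.40-fold. In SMs it was 1.68-fold higher in Zeb2KO. The Ms4a1-rich cluster of CMs had 481 CPM of Ms4a7, below the 1076 to 2655 CPM of the other Zeb2KO clusters of CMs, and Zeb2KO CMs with an Ms4a1 UMI held 762 CPM against 1634 CPM in those without.

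In AMs Ms4a7 was 2.43-fold higher in Zeb2KO (2.10 to 2.82), but 1 cluster decided it. A cluster led by C1qa, C1qb and C1qc, genes of complement that are low in AMs, held 221 of the Zeb2KO AMs (3.54%) and 67.8% of their Ms4a7 UMIs, at 298 CPM. Without that cluster Ms4a7 was at 8.65 CPM in WT and 7.16 CPM in Zeb2KO, and its log2 ratio of −0.24 had the opposite sign. Ms4a6c without it was at 36.9 and 4.03 CPM, so its difference in AMs was larger, and Ms4a1 was at 0.182 and 24.3 CPM.

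Ms4a8a, known from macs of the alternatively activated kind and from some epithelia, was at 113 CPM (109 to 118) in WT KCs, 101 CPM in the Nr1h3 fl/fl KCs and 45.2 CPM (42.7 to 47.9) in Zeb2KO KCs. The Zeb2KO level was 2.51-fold lower (2.34 to 2.69) than in the Zeb2 fl/fl WT and 2.24-fold lower than in the Nr1h3 fl/fl WT, and the share went from 40.3% to 18.9%. It was at 98.6 and 93.8 CPM in AMs and 10.4 CPM in both CM libraries, and their intervals overlapped. In SMs it was at 14.3 and 4.35 CPM, 3.28-fold lower but under 20 CPM, and microglia held 1 and 0 UMIs. Zeb2KO KCs with an Ms4a1 UMI held 14.5 CPM of Ms4a8a and those without 59.6 CPM, and the Ms4a1-rich cluster of KCs had 11.96 CPM. Within shared clusters it was 2-fold lower in 1 of 5 of KCs and in 2 of 9 of CMs (log2 −1.29 to 0.51). In CMs the counting intervals were apart in 1 of these, at 99.0 CPM in WT and 40.0 CPM in Zeb2KO cells.

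**Figure D4:**
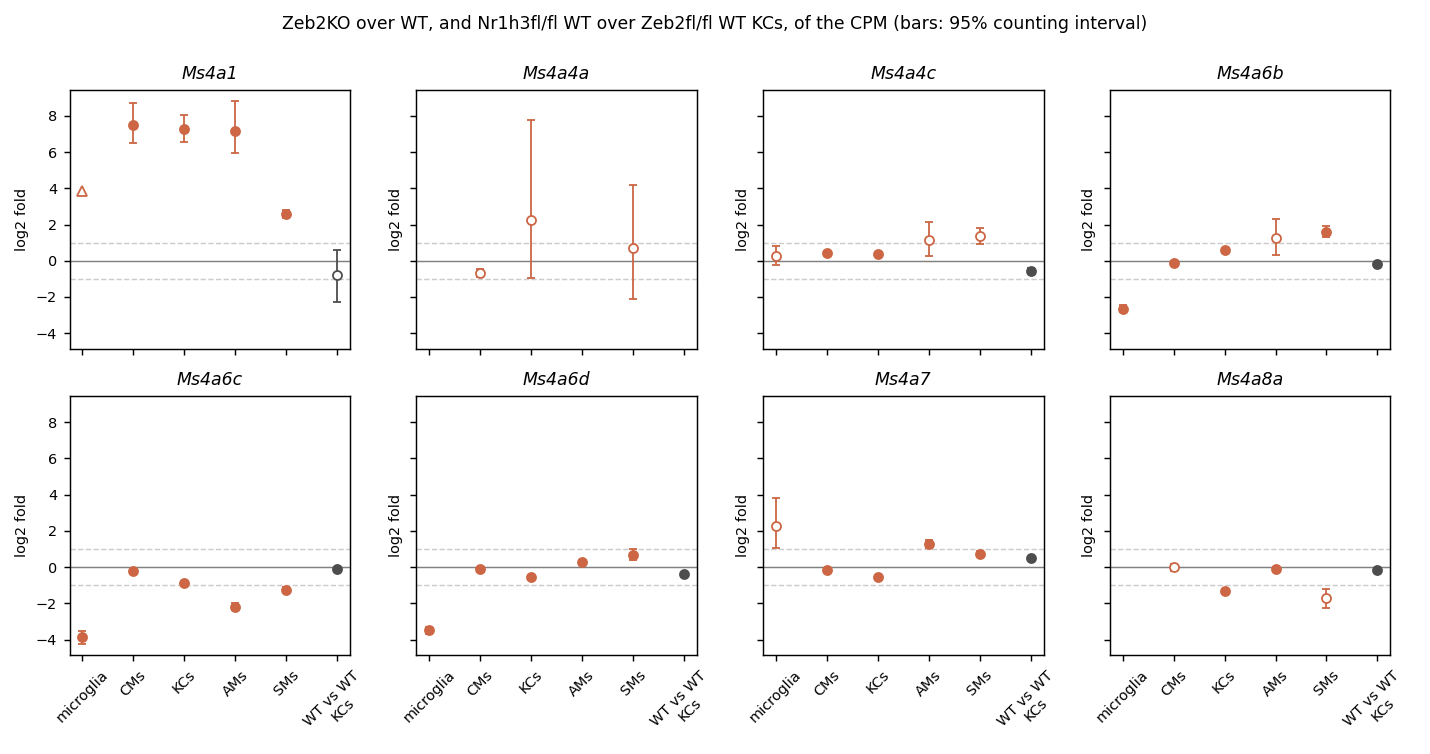
Log2 ratio of CPM, Zeb2KO over WT, for each Ms4a gene (panels) in 5 tissues, with the Nr1h3 fl/fl over the Zeb2 fl/fl WT library of KCs in grey. Bars are 95% counting intervals, filled points had at least 20 CPM in the higher library, dashed lines mark 2-fold, the open triangle for Ms4a1 in microglia is a lower bound, and ratios with at most 3 UMIs in both libraries are not drawn. Ms4a1 was 153-fold higher in Zeb2KO KCs, and Ms4a6b lay on opposite sides in microglia (6.24-fold lower) and SMs (3.03-fold higher).

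By tissue, microglia had 3 members at 20 CPM or more (Ms4a6b, Ms4a6c and Ms4a6d), and all 3 were lower in Zeb2KO, where 8.34% of 5922 genes were called in either direction. The median log2 ratio was −3.38 over the 3 members and −0.09 over all genes. All 3 reached 20 CPM in WT only, so that filter set their direction and their median is no test of the members. Likewise Ms4a1 reached it in Zeb2KO only in CMs, KCs and AMs, as did Ms4a7 in AMs and Ms4a6b in SMs. Ms4a6c reached it in WT only in AMs. CMs had 6 such members and 1 call (Ms4a1), where 1.56% of 5140 genes were called. KCs had 7 and 2 calls (Ms4a1 higher and Ms4a8a lower), where 4.65% of 5394 genes were called. AMs had 5 and 3 calls (Ms4a1 and Ms4a7 higher and Ms4a6c lower), where 11.7% of 5812 genes were called. SMs had 5 and 3 calls (Ms4a1 and Ms4a6b higher and Ms4a6c lower), where 3.47% of 6175 genes were called. Between both WT libraries of KCs 0 of 6 members were called, where 1.34% of 5542 genes were. In AMs the median log2 ratio of all genes was −0.31, and with TMM factors in place of total UMIs it was 0.00, which moved the share of calls that were higher from 37.4% to 67.1%. In microglia the same change moved it from 51.2% to 58.3%. With the Nr1h3 fl/fl library in place of the Zeb2 fl/fl WT it went from 74.1% to 52.6% in KCs.

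The 5 pairs together were fitted across 12186 genes with edgeR's quasi-likelihood test and tissue as a block, so that the tissues served as replicates of the genotype. By this test 0.0% of genes, and so 0 of the 7 members tested, passed an adjusted p of 0.05. Before adjustment 1467 genes had a p under 0.05, and the smallest adjusted p was 0.0991. Ms4a1 had a log2 fold change of 5.89 (SE 0.931, edgeR adjusted p = 0.187) and was higher in 5 of 5 pairs. As the study picked Ms4a1 as a marker in these libraries, this is not independent evidence of its direction. Apart from these libraries, the study stained for the protein by flow cytometry. It reported CD20 on part of the KCs of Clec4f-cre mice with floxed Zeb2, and none on control KCs. Ms4a6c had −1.53 (SE 0.490, adjusted p = 0.333 by edgeR) and was lower in 5 of 5, and Ms4a4c had 0.69 (SE 0.209, adjusted p = 0.306 by edgeR) and was higher in 5 of 5, a direction that turned in AMs without the C1q cluster and in CMs outside the Ms4a1-rich cluster.

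The other 4 tested members had adjusted p of 0.481 (Ms4a8a), 0.569 (Ms4a7), 0.768 (Ms4a6d) and 0.937 (Ms4a6b) in edgeR, with log2 fold changes of −0.69, 0.60, −0.45 and 0.15. Ms4a4a was too low to be tested. Among all genes 5.35% were higher in Zeb2KO in all 5 pairs, which 2 members were (Ms4a1 and Ms4a4c), and 8.14% were lower in all 5, which 2 members were (Ms4a6c and Ms4a8a), although for Ms4a8a the microglia pair held 1 and 0 UMIs, the CM levels overlapped, and with TMM factors it was higher in Zeb2KO AMs (log2 0.22). DESeq2 on the same design called 2.92% of 12760 genes and 2 members, Ms4a1 (log2 fold change 6.57, adjusted p = 3.613e-16) and Ms4a6c (−1.56, adjusted p = 0.0199). With the SM pair left out, edgeR called Ms4a1 (log2 fold change 7.35, adjusted p = 0.00104) and no other gene.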

How the data were processed

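Ms4a genes were measured by 10x Genomics 3′ single-cell RNA-seq in 11 libraries grouped by the labels. The authors ran CellRanger (mm10) and deposited raw UMI counts of 27998 genes for each barcode, without normalisation. The 8 members, the gene lists and the thresholds were chosen with earlier results of these data known. Genes named beside the members are the listed relatives, partners, B cell genes and the study's companion markers, and leading genes of clusters.

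From these counts, cells beyond 3 median absolute deviations in UMIs, genes or mitochondrial share were removed (4.66% to 9.22%), and each tissue was clustered in scanpy 1.11.5 (2000 variable genes, 30 components, 15 neighbours, resolution 0.8) without any Ms4a gene. Clusters with markers of another cell type were left out, and no doublet caller was run. These rules kept a cluster of 127 cells led by Xcr1 in the SMs and one of 69 cells led by smooth muscle genes (Actg2, Myh11) in the CMs. They also kept a cluster of 173 cells led by Alox15, Prg4, Slpi and Saa3 in the KCs. At most 1.45% of barcodes were shared between libraries. UMIs were summed per library and fitted with edgeR 4.0.16 (TMM, tissue as block), with DESeq2 1.42.0, other scalings, floors, filters and left-out pairs as alternatives, in R 4.3.3. The edgeR fit was tested on simulated counts. Sequences were aligned with blastn 2.17.0, and gene positions are from GENCODE M21. Ighm, Ighd, Trac, Trbc2 and Clec7a were not analysed here. Labels did not say that libraries came from separate animals, so p-values measure only the spread between libraries.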

Additional observations from a re-analysis of the deposited data

Results flagged for a closer look

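Ms4a6b had log2 ratios (Zeb2KO over WT) of opposite sign in a pair of tissues, −2.58 in microglia and 1.54 in SMs, each past 2-fold with counting intervals away from 0. The difference between tissues was not tested, as each tissue and genotype was 1 library. In SMs the WT share of cells with a UMI (3.21%) lay between that of the B cell-like (4.09%) and erythroid-like cells (2.44%) of the library, and T cell-like cells of that library carried the gene at 487 CPM, values whose part in the difference was not tested.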

How the results depend on the processing

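Of 92 values of called members under other settings, 91 kept their sign and 86 stayed past 2-fold. The exception in sign was Ms4a7 in AMs, at a log2 ratio of −0.24 without the cluster led by C1q genes, an alternative chosen after seeing the data. Called members in SMs went from 3 to 1 with all deposited barcodes or with the quality filter only, settings that keep the B cells, and to 5 at a floor of 5 CPM. At a floor of 50 CPM 0 members were called in CMs and 0 in AMs. The share of all genes called under these settings is not given here, so these counts do not show whether members moved more than other genes. DESeq2 called 2 members and 373 genes where edgeR called 0 genes, and leaving out a pair gave 0 to 1 members (Ms4a1 without the SMs). The cause of the difference between tools was not tested. Over the other edgeR alternatives the adjusted p of Ms4a1 ran from 0.102 to 0.492. The pooled log2 fold change of Ms4a6b, which edgeR did not call, ran from −0.24 (without the SM pair) to 0.77 (without the microglia pair) as pairs were left out, with −0.09 without the AM pair, and was −0.22 without the C1q cluster. That of Ms4a6d ran from −0.76 (without the SM pair) to 0.12 (without the microglia pair). WT and Zeb2KO libraries were paired by tissue, as the block of both fits. Beyond that, no paired analysis was possible because each group held 1 library. Depth limits Ms4a4a outside CMs, Ms4a7 and Ms4a8a in microglia, and Ms4a4c and Ms4a6b in AMs.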

Other observations

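Among the 13 other relatives in the tables, Tmem176a and Tmem176b, which lie on chromosome 6 and encode related ion channel proteins, were the ones that passed 2-fold among those at 20 CPM or more in the higher library, both in SMs (Tmem176a 10.9 CPM in WT and 26.5 CPM in Zeb2KO, Tmem176b 21.6 and 50.9 CPM). Ms4a14 was at 19.6 and 20.3 CPM in CMs, and Ms4a10, Ms4a13, Ms4a15 and Ms4a18 had 0 UMIs in all 11 libraries. Trem2, a lipid receptor of macs, was at 43.4 CPM in WT and 177 CPM in Zeb2KO KCs (36.5 CPM in the Nr1h3 fl/fl library), 36.6 and 131 CPM in AMs and 2870 and 2370 CPM in microglia.

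Of the further B cell genes listed, outside the 10 markers, Fcrla, which encodes an Fc receptor-like protein of B cells, was at 0.243 CPM in WT and 245 CPM in Zeb2KO microglia, where Ms4a1 reached 3.54 CPM, and at 1.56 CPM or less in the CMs, KCs and AMs of both genotypes. Cd37, a tetraspanin of B cells and other leukocytes, was at 14.0 CPM in WT and 84.8 CPM in Zeb2KO AMs. Cd79b, one of the 10, was lower in Zeb2KO CMs (40.7 and 4.27 CPM) and microglia (56.2 and 23.3 CPM).

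Over the 11 libraries, which share tissues and controls, the genes outside the family whose log2(CPM + 1) was most like that of a member, among 8032 genes and given with no test, were Pglyrp1 (r = 0.856), Jak2 (0.854) and Serpinb6b (0.837) for Ms4a1, and Scpep1 (0.946), Tslp (0.939) and Wbp5 (0.934) for Ms4a6c. The highest for the others were Cpne2 for Ms4a4c (0.983), Snx6 for Ms4a6b (0.966), Rab9 for Ms4a6d (0.963), Gm5547 for Ms4a7 (0.952) and Fam174a for Ms4a8a (0.967).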
